A study of Mus musculus with 9 samples.

Results

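The Dlk1-Dio3 domain is an imprinted stretch of mouse chromosome 12, in which some genes are read from the maternal chromosome and others from the paternal one. It was followed here through 7 named genes, namely the maternally expressed RNAs Meg3, Rian and Mirg, the paternally expressed protein genes Dlk1, Rtl1 and Dio3, and Begain at the edge of the domain. These are 7 of the 52636 gene IDs in the count table, chosen by name with earlier results of these data known. All 7 passed the low-count filter, Rtl1 only through its level in the Nanog-null line. RNA was measured in 3 mouse embryonic stem cell (ESC) lines with 3 libraries each. The Esrrb+Nanog line (44JN, titled NanogKO:Esrrb:Nanog) and the Esrrb line (44J, titled NanogKO:Esrrb) are both labelled with the genotype N{delta}:cE:iN, and the Nanog-null line (44C6, titled NanogKO) with N{delta}. All 3 lines therefore lack the native Nanog gene by their titles, and the titles of the first and second add Esrrb, with Nanog as well in the first. All cells grew in medium with 10% fetal bovine serum and 1000 U per ml leukaemia inhibitory factor, received no treatment, and were sorted for PECAM on the surface and absence of PDGFRA. The genotype label shared by the first and second does not set them apart, and the groups used here follow the titles. Since 1 line stands for each title, effects of an added gene and of the line that carries it cannot be told apart.

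Imprinting in the domain is set by a control region between Dlk1 and Meg3, the IG-DMR, which carries DNA methylation on the paternal chromosome. Where that methylation is absent, on the maternal chromosome, Meg3, Rian and Mirg are transcribed in the same direction and are generally held to form a single long unit. Rian carries a cluster of small nucleolar RNAs (snoRNAs), Mirg a cluster of microRNAs (miRNAs), and further miRNAs are encoded on the strand opposite Rtl1. In mouse pluripotent cells, low levels of these maternal RNAs have been linked to gain of methylation at the domain and to poor contribution to chimaeric animals. DNA methylation and parental origin were not measured in these libraries.

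The start regions of Meg3, Rian, Dlk1 and Begain are given because the first 3 genes differed strongly between the lines and Begain did not. The sequences are from RefSeq (build GRCm38.p6), 5′ to 3′ on the strand of the gene. Meg3 lies at chr12:109540746-109541045 (plus strand) and Rian at chr12:109603695-109603994 (plus strand), both as 300 bases around the annotated start. Dlk1 lies at chr12:109452573-109452822 (plus strand) and Begain at chr12:109068243-109068492 (minus strand), both as the 250 bases before the start. Capitals mark GCGGCA, the reverse complement of TGCCGC, the core motif that the imprint protein ZFP57 binds when it is methylated.
Meg3: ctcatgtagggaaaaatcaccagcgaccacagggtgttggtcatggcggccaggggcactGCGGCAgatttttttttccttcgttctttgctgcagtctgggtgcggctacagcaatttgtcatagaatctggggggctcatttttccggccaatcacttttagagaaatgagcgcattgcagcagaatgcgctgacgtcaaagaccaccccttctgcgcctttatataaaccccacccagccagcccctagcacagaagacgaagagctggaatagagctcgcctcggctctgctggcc
Rian: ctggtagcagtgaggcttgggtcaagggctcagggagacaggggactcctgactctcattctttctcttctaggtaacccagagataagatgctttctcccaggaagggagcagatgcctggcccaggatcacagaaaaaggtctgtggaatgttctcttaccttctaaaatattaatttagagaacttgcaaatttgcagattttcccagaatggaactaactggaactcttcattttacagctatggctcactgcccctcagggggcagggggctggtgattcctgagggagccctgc
Dlk1: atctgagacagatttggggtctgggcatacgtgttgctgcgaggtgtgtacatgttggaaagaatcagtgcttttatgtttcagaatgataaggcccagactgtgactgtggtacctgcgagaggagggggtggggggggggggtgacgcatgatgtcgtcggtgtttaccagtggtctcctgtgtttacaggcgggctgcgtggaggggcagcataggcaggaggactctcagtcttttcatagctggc
Begain: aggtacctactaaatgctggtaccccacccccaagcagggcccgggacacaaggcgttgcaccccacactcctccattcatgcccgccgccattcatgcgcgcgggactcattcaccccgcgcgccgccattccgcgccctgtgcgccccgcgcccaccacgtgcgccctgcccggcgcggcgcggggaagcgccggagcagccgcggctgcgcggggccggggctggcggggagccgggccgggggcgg

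In the 300-base windows of RefSeq the number of CG dinucleotides, the target of DNA methylation, differed widely between these genes. The Meg3 window held 13, the Rian window 0, the Dlk1 window 9 and the Begain window at its first start 42, against a median of 7 over 32851 windows of all genes. TGCCGC, searched on both strands, was found once in the Meg3 window and in none of the windows of Rian, Mirg, Dlk1, Dio3 or Begain, and 11.6% of all windows held it. AAGGTCA, the half-site bound by ESRRB, was found in none of the first-start windows of these genes. It occurred in the window of a second Meg3 start (chr12:109545148-109545447), and 4.72% of all windows held it. The motifs do not overlap each other, and a match in these letters is a description only.

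The miRNAs of the domain were represented by 58 RefSeq hairpins with 113 mature names and 104 distinct seeds (bases 2 to 8). Only 9 seeds were shared, each by a pair of miRNAs. Mature sequences are given for 5 miRNAs encoded opposite Rtl1, because they share the region of that gene on the other strand, and for the 3 hairpins with the most reads together with miR-496a-5p, which has the seed of miR-453. Capitals mark the seed.
miR-431-5p: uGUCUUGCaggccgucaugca
miR-433-3p: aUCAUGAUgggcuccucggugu
miR-127-3p: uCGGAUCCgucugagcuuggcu
miR-434-3p: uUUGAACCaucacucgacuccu
miR-136-5p: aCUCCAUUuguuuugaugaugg
miR-1188-5p: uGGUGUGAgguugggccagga
miR-453: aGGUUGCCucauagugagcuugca
miR-496a-5p: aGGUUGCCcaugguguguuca
miR-3072-5p: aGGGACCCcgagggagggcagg

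Library totals lay between 21808120 and 32496267 read counts. Over all tested genes, 71.4% of the variance lay on a first principal component that set the Nanog-null line apart, and 11.7% on the second. Nanog itself had 221, 289 and 332 CPM in Esrrb+Nanog libraries, 29.7, 35.1 and 30.4 CPM in Esrrb libraries and 14.3, 14.3 and 16.0 CPM in Nanog-null libraries, where CPM is the counts-per-million value on the scaled library total. Esrrb had 1112, 1150 and 1055 CPM, 768, 948 and 692 CPM, and 273, 253 and 303 CPM in the libraries of the same lines in the same order. Nanog and Esrrb were highest in the Esrrb+Nanog line. Reads on Nanog were present in both lines whose titles carry no added Nanog, with 2766 counts over the Esrrb libraries and 1160 over the Nanog-null libraries, and every Esrrb library lay above every Nanog-null library. Which part of Nanog these reads cover is not shown by counts per gene. The marker genes of ESCs summed to between 5510 and 6074 CPM in the Esrrb+Nanog line, 6598 and 6840 CPM in the Esrrb line and 4664 and 4952 CPM in the Nanog-null line, with none of the 10 at 0 in any line. Whether replicates came from separate cultures is not stated, and the p-values therefore measure spread among libraries that may be technical.

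Both lines with added Esrrb had far less RNA from the centre of the domain than the Nanog-null line. Of the 7 genes, Meg3, Rian, Mirg, Rtl1 and Dlk1 were lower and Begain and Dio3 did not pass the test, in the Esrrb+Nanog line as in the Esrrb line. The count of 5 lower and 0 higher in the Esrrb+Nanog line stands beside 27.2% of all 16198 tested genes that were called lower and 27.2% that were called higher. In the Esrrb line the counts were again 5 and 0, beside 24.2% called lower and 24.2% called higher. Calls in either direction made up 54.4% and 48.5% of tested genes in these comparisons. All 5 were more than 4-fold lower in both lines, while 3.77% of tested genes were called at least 4-fold lower in the Esrrb+Nanog line and 2.94% in the Esrrb line. In all 5, every library with added Esrrb lay below every Nanog-null library, which held for 30.7% of tested genes in the Esrrb+Nanog line and 29.0% in the Esrrb line. Rtl1 could enter the test only because it was high in the Nanog-null line, so its place in these counts is not independent of its difference. Both comparisons use the same 3 Nanog-null libraries. In bulk RNA, fewer cells that express a gene and less RNA per cell cannot be told apart.

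**Figure D1:**
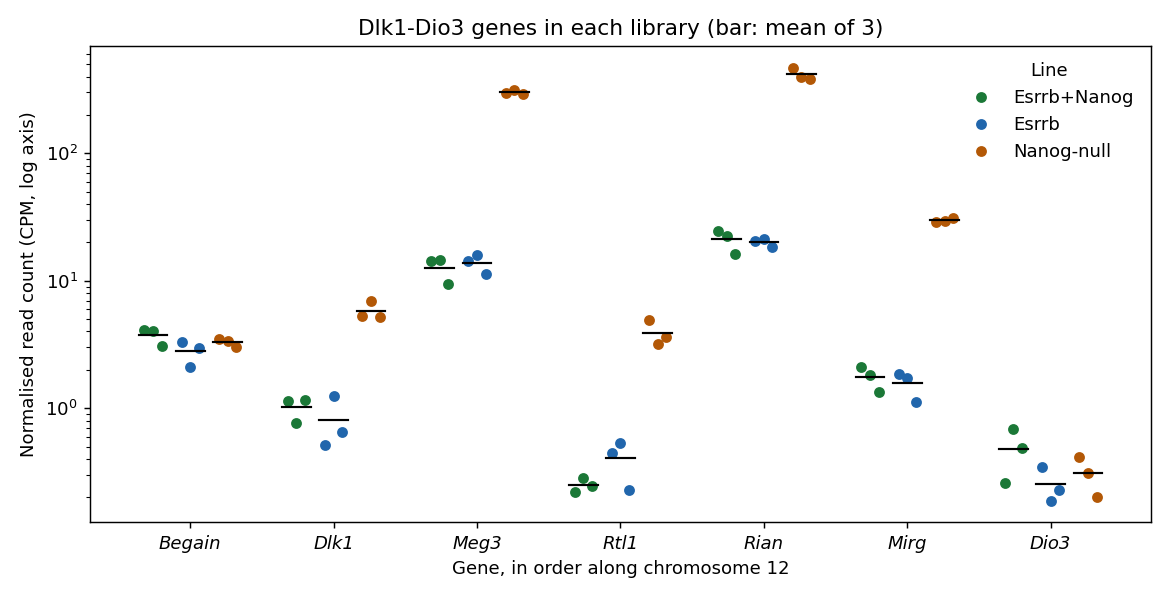
Normalised read count (CPM, log axis) of the 7 genes in each of 9 libraries, in their order along chromosome 12, with the Esrrb+Nanog, Esrrb and Nanog-null lines from left to right and a bar at the mean of 3 libraries. Dlk1, Meg3, Rtl1, Rian and Mirg were higher in all 3 Nanog-null libraries than in any other library, and the points of Begain and Dio3 overlap between lines.

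Meg3 (ENSMUSG00000021268, chr12:109541001-109571726, plus strand, mm10) is a long non-coding RNA that is the best known maternal transcript of the domain. It had 14.3, 14.4 and 9.41 CPM in Esrrb+Nanog libraries, 14.2, 16.0 and 11.4 CPM in Esrrb libraries and 297, 311 and 293.5 CPM in Nanog-null libraries. Every library with added Esrrb lay far below every Nanog-null library, and the libraries of the Esrrb+Nanog and Esrrb lines were interleaved. The Esrrb+Nanog mean was 4.23% and the Esrrb mean 4.61% of the Nanog-null mean. Against the Nanog-null line the log2 fold change was -4.57 ± 0.16 (SE; adjusted p = 2.58e-09, edgeR quasi-likelihood test) for the Esrrb+Nanog line and -4.43 ± 0.15 (adjusted p = 4.21e-09) for the Esrrb line. Counted from the lowest fold change of the 16198 tested genes, Meg3 took rank 76 in the Esrrb+Nanog line and rank 32 in the Esrrb line.

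Rian (ENSMUSG00000097451, chr12:109603940-109661716, plus strand) is the host RNA of the snoRNA cluster and was the most abundant member in all 3 lines. It stood at 24.7, 22.6 and 16.2 CPM in Esrrb+Nanog libraries, 20.4, 21.35 and 18.4 CPM in Esrrb libraries and 470.4, 397 and 382 CPM in Nanog-null libraries. As with Meg3, Nanog-null libraries stood alone and the others overlapped. The log2 fold change was -4.30 ± 0.15 (adjusted p = 2.58e-09) in the Esrrb+Nanog line and -4.37 ± 0.15 (adjusted p = 3.15e-09) in the Esrrb line.

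Mirg (ENSMUSG00000097391, chr12:109729764-109749460, plus strand) is the host RNA of the miRNA cluster at the distal end of the maternal unit. There were 2.10, 1.81 and 1.33 CPM in Esrrb+Nanog libraries, 1.86, 1.73 and 1.11 CPM in Esrrb libraries and 28.7, 29.6 and 31.3 CPM in Nanog-null libraries. The separation was again complete between Nanog-null libraries and all others. The log2 fold change of Mirg was -4.10 ± 0.18 (adjusted p = 1.41e-08) in the Esrrb+Nanog line and -4.24 ± 0.18 (adjusted p = 1.71e-08) in the Esrrb line. Together, Meg3, Rian and Mirg summed to 42.9, 39.6 and 26.9 CPM of the unscaled library total in Esrrb+Nanog libraries, 35.7, 38.2 and 30.2 in Esrrb libraries and 789, 746 and 709 in Nanog-null libraries.

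Dlk1 (ENSMUSG00000040856, chr12:109452823-109463336, plus strand) encodes a membrane protein of the Notch ligand family and is read from the paternal chromosome. It had 1.14, 0.7635 and 1.15 CPM in Esrrb+Nanog libraries, 0.518, 1.26 and 0.6525 CPM in Esrrb libraries and 5.32, 6.93 and 5.21 CPM in Nanog-null libraries. The 3 Nanog-null libraries were the highest, though Dlk1 was a low gene throughout, with 15 to 40 counts in each library with added Esrrb. Its log2 fold change was -2.50 ± 0.28 (adjusted p = 1.85e-05) in the Esrrb+Nanog line and -2.82 ± 0.29 (adjusted p = 1.18e-05) in the Esrrb line. Dlk1 kept 17.5% of its Nanog-null mean in the Esrrb+Nanog line and 13.9% in the Esrrb line.

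Rtl1 (ENSMUSG00000085925, chr12:109589193-109600330, minus strand) is a paternally expressed gene derived from a retrotransposon and is known for its part in the placenta and muscle. Its maternal antisense RNA carries miRNAs such as miR-127 and miR-136, printed above. Because the counting is not stated to use strand, reads of Rtl1 and of an RNA from the opposite strand cannot be told apart. Rtl1 had 0.221, 0.281 and 0.245 CPM in Esrrb+Nanog libraries (6, 7 and 7 counts), 0.449, 0.5345 and 0.230 CPM in Esrrb libraries (13, 17 and 6 counts) and 4.91, 3.19 and 3.64 CPM in Nanog-null libraries (106, 83 and 109 counts). All libraries with added Esrrb lay well under the lowest Nanog-null library. The log2 fold change was -3.95 ± 0.31 (adjusted p = 1.33e-06) in the Esrrb+Nanog line and -3.23 ± 0.28 (adjusted p = 4.23e-06) in the Esrrb line.

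Dio3 (ENSMUSG00000075707, chr12:110279068-110281097, plus strand) encodes the deiodinase that inactivates thyroid hormone and lies at the distal end of the domain. Only 6 to 17 counts fell on it in any library. It had 0.258, 0.683 and 0.490 CPM in Esrrb+Nanog libraries, 0.345, 0.189 and 0.230 CPM in Esrrb libraries and 0.417, 0.308 and 0.2005 CPM in Nanog-null libraries. The lines overlapped, and no difference passed the test. Its log2 fold change was 0.65 in the Esrrb+Nanog line (95% interval -0.29 to 1.60, adjusted p = 0.223) and -0.235 in the Esrrb line (-1.27 to 0.80, adjusted p = 0.712). A fall of the size of Dlk1 lay outside these intervals, while differences within them could not be told from none at this depth. The interval of Dlk1 ran from -3.11 to -1.89 in the Esrrb+Nanog line and from -3.44 to -2.19 in the Esrrb line.

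Begain (ENSMUSG00000040867, chr12:109032187-109068217, minus strand) encodes a protein of the synapse in brain and marks the proximal edge. It had 4.13, 4.02 and 3.08 CPM in Esrrb+Nanog libraries, 3.31, 2.11 and 2.99 CPM in Esrrb libraries and 3.47, 3.35 and 3.04 CPM in Nanog-null libraries. The ranges of the 3 lines overlapped. Its log2 fold change was 0.19 in the Esrrb+Nanog line (95% interval -0.24 to 0.62, adjusted p = 0.443) and -0.23 in the Esrrb line (-0.665 to 0.205, adjusted p = 0.365), so that a change of more than 2-fold lay outside both intervals.

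No member had a called change between the Esrrb+Nanog line and the Esrrb line. Between Esrrb+Nanog and Esrrb cells edgeR called 0 of 7 genes, with 0 also at an unadjusted p under 0.05 and 0 by DESeq2, beside 13.2% of all tested genes called in either direction. All 7 overlapped, beside 16.7% of tested genes with every Esrrb+Nanog library below the Esrrb libraries and 14.9% with every one above. For Meg3 the log2 difference was -0.135 with a 95% interval from -0.47 to 0.20 (adjusted p = 0.615), and for Rian it was 0.07 with an interval from -0.23 to 0.38 (adjusted p = 0.783). The interval for Mirg ran from -0.33 to 0.60. Intervals were wider for the low genes, from -0.40 to 1.04 for Dlk1, from -1.60 to 0.16 for Rtl1, from -0.06 to 1.84 for Dio3 and from -0.01 to 0.85 for Begain. Nanog itself was higher in every Esrrb+Nanog library than in any Esrrb library, as given above.

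**Figure D2:**
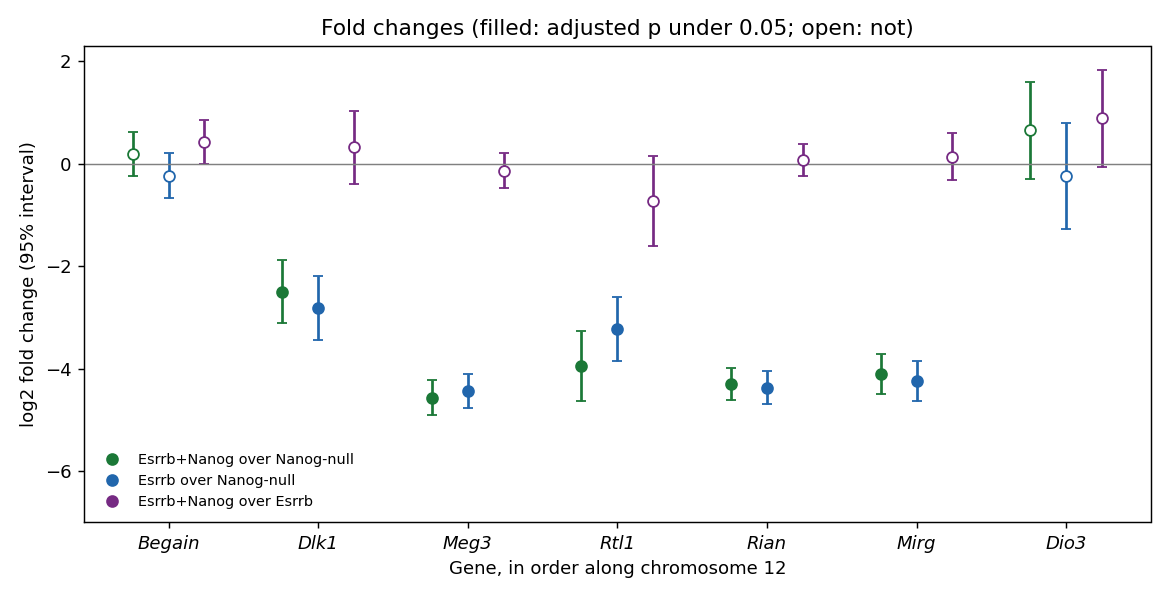
log2 fold change with its 95% interval (vertical axis) of the 7 genes in order along chromosome 12, for the Esrrb+Nanog line over the Nanog-null line, the Esrrb line over the Nanog-null line and the Esrrb+Nanog line over the Esrrb line. Filled points passed the adjusted p threshold of 0.05 and open points did not, with filled points at -2.50 to -4.57 for Dlk1, Meg3, Rtl1, Rian and Mirg and none for Begain, Dio3 or the comparison of the lines with added Esrrb.

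The order of the genes by level changed along with the fall of the central RNAs. Levels were set between genes as CPM per kilobase of exon. In the Esrrb+Nanog line Rian had 1.16 ± 0.24, Begain 0.849 ± 0.13 and Meg3 0.702 ± 0.16 CPM per kb (SD, n = 3), and neighbours among these 3 overlapped. Mirg at 0.2395, Dio3 at 0.235 and Dlk1 at 0.180 CPM per kb overlapped likewise, and Rtl1 was lowest at 0.0392 CPM per kb. In the Esrrb line Rian led at 1.10 ± 0.08 CPM per kb, followed by Meg3 at 0.7665 and Begain at 0.636, which overlapped, then Mirg at 0.215, Dlk1 at 0.143 and Dio3 at 0.1255, each overlapping the next, and Rtl1 at 0.0636. Begain, a gene that did not pass the test, thus stood beside the maternal RNAs in both of these lines. In the Nanog-null line Rian had 22.85 ± 2.6, Meg3 16.6 ± 0.52, Mirg 4.10 ± 0.18 and Dlk1 1.03 ± 0.17 CPM per kb with no overlap between neighbours, Begain at 0.746 overlapped Rtl1 at 0.616, and Dio3 was lowest at 0.152. Rian exceeded 32.2% of tested genes by this measure in the Esrrb+Nanog line, 31.4% in the Esrrb line and 85.0% in the Nanog-null line, and Meg3 exceeded 25.4%, 26.1% and 79.5% in the same lines.

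The proportions of the maternal RNAs were compared within each library, where scaling between libraries has no part. With 3 libraries a line, the smallest p that the test allows is 0.1, so that a higher p does not show that a proportion was the same. The ratio of Rian counts to Meg3 counts was 1.73, 1.57 and 1.72 in Esrrb+Nanog libraries, 1.44, 1.34 and 1.62 in Esrrb libraries and 1.58, 1.28 and 1.30 in Nanog-null libraries. The ranges of the Esrrb+Nanog and Nanog-null lines overlapped at their edges and the log2 difference was 0.275 (exact two-sided permutation test, p = 0.2). Between the Esrrb and Nanog-null lines the difference was 0.08 (exact permutation p = 0.5). The ratio of Mirg to Meg3 was 0.147, 0.125 and 0.141 in Esrrb+Nanog libraries, 0.131, 0.108 and 0.0976 in Esrrb libraries and 0.0966, 0.0951 and 0.107 in Nanog-null libraries. It lay higher in 3 of 3 Esrrb+Nanog libraries than in any Nanog-null library, by 0.47 on the log2 scale (exact permutation p = 0.1, the smallest that 3 against 3 allows, adjusted p = 0.24 over 12 comparisons).

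Dlk1 and Rtl1 were set against Meg3 in the same way. The ratio of Dlk1 counts to Meg3 counts was 0.0801, 0.0529 and 0.123 in Esrrb+Nanog libraries, 0.0364, 0.0787 and 0.0572 in Esrrb libraries and 0.0179, 0.02225 and 0.0178 in Nanog-null libraries. Every library of the Esrrb+Nanog and Esrrb lines exceeded every Nanog-null library. The log2 difference of this ratio was 2.07 for Esrrb+Nanog and 1.51 for Esrrb over Nanog-null cells, with an exact permutation p = 0.1 and an adjusted p = 0.24 for each, a design that cannot go below 0.1. The ratio of Rtl1 to Meg3 was 0.0155, 0.0195 and 0.0260 in Esrrb+Nanog libraries, 0.03155, 0.0335 and 0.0202 in Esrrb libraries and 0.0165, 0.0103 and 0.0124 in Nanog-null libraries. It was higher in the Esrrb line than in the Nanog-null line without overlap, by 1.11 on the log2 scale (exact permutation p = 0.1, adjusted p = 0.24), and the Esrrb+Nanog and Nanog-null ranges overlapped (difference 0.63, exact permutation p = 0.2). The ratios of Dlk1 and Rtl1 were added after the counts had been seen.

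**Figure D3:**
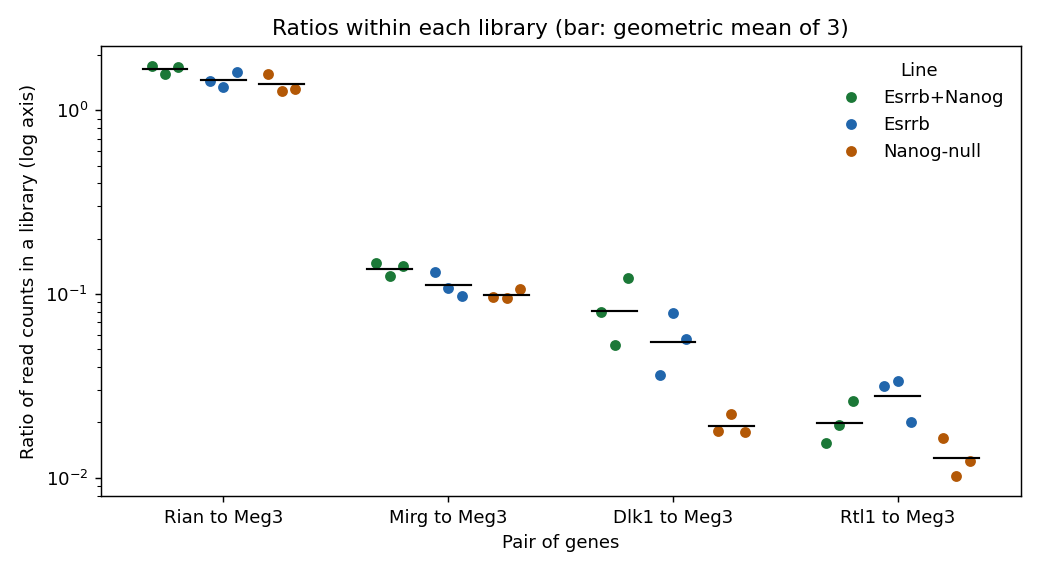
Ratio of the counts of Rian, Mirg, Dlk1 and Rtl1 to those of Meg3 within each library (log axis), with the Esrrb+Nanog, Esrrb and Nanog-null lines from left to right and a bar at the geometric mean of 3 libraries. The ratio of Rian to Meg3 lay between 1.28 and 1.73 in all 9 libraries, and that of Dlk1 to Meg3 had geometric means of 0.0804 in the Esrrb+Nanog line and 0.05475 in the Esrrb line, whose points overlap, and 0.0192 in the Nanog-null line below both.

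The domain, from the first base of Begain to the last base of Dio3 (chr12:109032187-110281097, 1249 kb), holds 115 further gene IDs of the table, most of them small RNAs that libraries of long RNA capture poorly. Reads were absent from 80 of the 115 in all 9 libraries, and those with reads had them mainly in the Nanog-null line, with 38 counts in all in the Esrrb+Nanog line, 32 in the Esrrb line and 338 in the Nanog-null line. The 69 miRNA IDs summed to 5, 1 and 57 counts in the same lines, and the 23 snoRNA IDs to 2, 6 and 39 counts. Of the snoRNA counts, 2, 6 and 38 came from the 13 IDs inside Rian. All 7 miRNA IDs inside Rtl1, among them the hairpins of the 5 miRNAs printed first, had 0 counts in every library. The hairpin of miR-1188 had 0, 0 and 11 counts, that of miR-453 had 0, 0 and 9, and that of miR-3072 had 3, 0 and 10 in the Esrrb+Nanog, Esrrb and Nanog-null lines. Counts on a hairpin can include fragments of its host RNA, so they say nothing of the mature miRNA.

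Among these further IDs, 2 passed the low-count filter, both only through the Nanog-null line. Gm34081 (chr12:109493529-109516740, minus strand) is a long non-coding RNA between Dlk1 and Meg3, the interval that also holds the IG-DMR. It had 3, 0 and 1 counts in Esrrb+Nanog libraries, 2, 2 and 1 in Esrrb libraries and 20, 16 and 26 in Nanog-null libraries. Its log2 fold change was -3.895 ± 0.53 (adjusted p = 8.30e-05) in the Esrrb+Nanog line and -3.70 ± 0.51 (adjusted p = 1.11e-04) in the Esrrb line. Gm26945 (chr12:109640341-109642351, plus strand) lies inside Rian on the same strand, so its reads cannot be assigned with certainty. Its counts were 3, 1 and 2 in Esrrb+Nanog libraries, 0, 4 and 1 in Esrrb libraries and 43, 12 and 25 in Nanog-null libraries, with log2 fold changes of -3.76 and -4.11. Low counts decide the size of both genes' changes, and over the alternatives the Gm26945 change in the Esrrb line ranged from -5.54 to -3.44. Gm26906, on the strand opposite Meg3, had 0 counts in all 9 libraries.

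Outside the domain the change did not continue at this size. Of 13 protein-coding genes within 500 kb of either end, 11 were tested. In the Esrrb+Nanog line 2 were higher and 3 lower, and in the Esrrb line 2 were higher and 4 lower, with a median log2 fold change of 0.06 and 0.04. These 5 and 6 calls of 11 lie near the 54.4% and 48.5% of all tested genes that were called in the same lines. Eml1, which encodes a microtubule-binding protein and lies farthest out on the proximal side, had the largest change, at -1.53 in the Esrrb+Nanog line and -1.52 in the Esrrb line (adjusted p = 3.11e-05 and 4.12e-05). Evl, a gene of the actin cytoskeleton, was at -0.73 and -0.65 in the same lines. The mitochondrial carrier gene Slc25a47 was at -0.57 and -0.91. Wdr25, the neighbour of Begain, was at -0.27 (adjusted p = 0.0864) in the Esrrb+Nanog line and was called lower in the Esrrb line (-0.41). Slc25a29 was higher in the Esrrb+Nanog line (1.03) and Ppp2r5c in the Esrrb line (0.37), and the chaperone gene Hsp90aa1 was higher in both (0.21 and 0.37). In a test against a fold change of 1.5 the calls of Eml1 in both lines and of Evl in the Esrrb+Nanog line were the ones that held, and Slc25a47 in the Esrrb+Nanog line was called under 10 of 17 alternatives. Between Esrrb+Nanog and Esrrb cells edgeR called 0 of these 11, beside 13.2% of all tested genes called in either direction. By edgeR 2 had an unadjusted p under 0.05 (Ppp2r5c and Hsp90aa1), and DESeq2 called 1, Ppp2r5c (adjusted p = 0.0420).

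**Figure D4:**
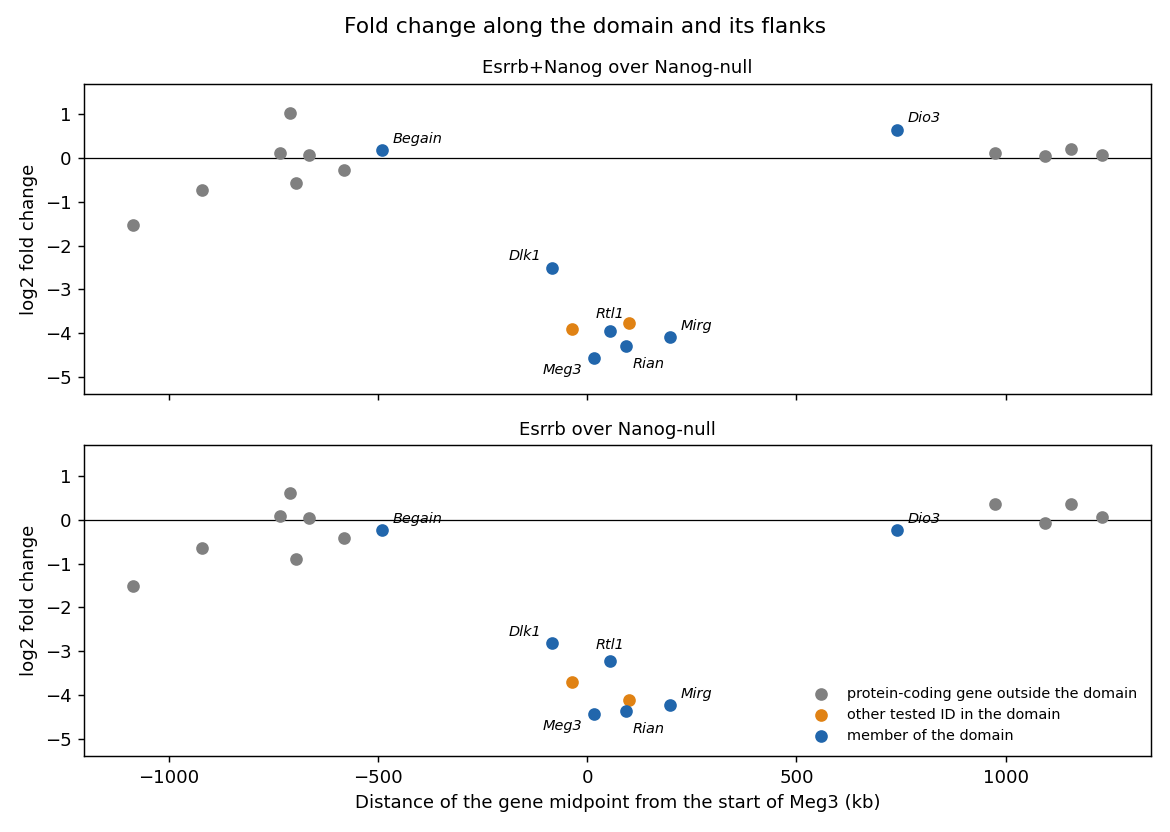
log2 fold change (vertical axis) of tested genes by the distance of their midpoint from the start of Meg3 (horizontal axis, kb), for the Esrrb+Nanog line over the Nanog-null line (top) and the Esrrb line over the Nanog-null line (bottom). Members of the domain are blue, other tested IDs of the domain orange and protein-coding genes outside it grey, and the values from Dlk1 to Mirg lie between -2.50 and -4.57 while Begain, Dio3 and the genes outside lie between -1.53 and 1.03.

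Genes that keep or remove imprints changed in both directions. Of 22 such genes, all tested, 9 were higher and 9 lower in the Esrrb+Nanog line and 12 were higher and 4 lower in the Esrrb line, both set against Nanog-null cells, with a median log2 fold change of 0.09 and 0.23, against 0.00 and 0.01 over all tested genes. Of all tested genes, 27.2% were called in each direction in the Esrrb+Nanog line and 24.2% in the Esrrb line. Zfp57, which binds methylated imprint control regions and keeps them methylated, had 535, 595 and 628.5 CPM in Esrrb+Nanog libraries, 568, 570.5 and 565 CPM in Esrrb libraries and 105, 96.5 and 120.2 CPM in Nanog-null libraries. Every library with added Esrrb lay above every Nanog-null library, with log2 fold changes of 2.45 (adjusted p = 2.78e-09) and 2.41 (adjusted p = 4.74e-09). Its partner Trim28, a corepressor, was higher by less, at 0.47 and 0.54, and these calls did not hold in a test against a 1.5-fold change.

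Dppa3, also called Stella, protects methylation in the early embryo, and in mouse pluripotent cells its presence has been tied to the imprint of this domain. It had 0.406, 0.322 and 0.420 CPM in Esrrb+Nanog libraries, 1.795, 1.10 and 1.19 CPM in Esrrb libraries and 54.1, 51.9 and 59.8 CPM in Nanog-null libraries. The 3 lines did not overlap. The log2 fold change against the Nanog-null line was -7.15 in the Esrrb+Nanog line and -5.34 in the Esrrb line. Dppa3 was also lower in the Esrrb+Nanog line than in the Esrrb line (-1.81, adjusted p = 9.75e-04). Aff3, whose protein binds the IG-DMR in mouse ESCs, had 5.16, 3.46 and 3.36 CPM in Esrrb+Nanog libraries, 6.80, 4.18 and 7.64 CPM in Esrrb libraries and 59.3, 50.2 and 48.7 CPM in Nanog-null libraries. It was lower without overlap in both lines, at -3.72 (adjusted p = 1.27e-07) and -3.09 (adjusted p = 4.78e-07).

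The methyltransferase gene Dnmt3a had 136, 164 and 158 CPM in Esrrb+Nanog libraries, 345, 325 and 275 CPM in Esrrb libraries and 181, 180.4 and 181 CPM in Nanog-null libraries. The Esrrb line was thus the highest and the Esrrb+Nanog line the lowest. The log2 fold change was -0.24 in the Esrrb+Nanog line (adjusted p = 0.0343, called under 11 of 17 alternatives) and 0.80 in the Esrrb line (adjusted p = 2.16e-05) relative to the Nanog-null line, and -1.04 between the Esrrb+Nanog and Esrrb lines (adjusted p = 3.80e-05). Dnmt3b was lower in both, at -1.05 and -0.35, the second of which did not hold against a 1.5-fold change. Dnmt3l, the cofactor of these enzymes, was lower in the Esrrb+Nanog line (-0.62), a call that did not hold against a 1.5-fold change either, and was at -0.13 in the Esrrb line (adjusted p = 0.257). Between the Esrrb+Nanog and Esrrb lines 7 of the 22 regulators were lower and 0 higher, beside 7.75% of all tested genes lower and 5.43% higher. Among the 7 was Jarid2, a Polycomb cofactor (-0.57, not called against a 1.5-fold change). Whether any of these genes bears on the level of Meg3 was not tested.

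Imprinted genes elsewhere in the genome were counted in the same way. Of 26 imprinted genes outside the domain, 25 were tested, and 3 were higher and 16 lower in each of the Esrrb+Nanog and Esrrb lines relative to Nanog-null cells, with a median log2 fold change of -0.69 and -0.75. Over all tested genes, 27.2% were called in each direction in the Esrrb+Nanog line and 24.2% in the Esrrb line. H19, a maternally expressed RNA of chromosome 7, averaged 2.197 ± 0.21 CPM in the Esrrb+Nanog line, 5.94 ± 1.6 CPM in the Esrrb line and 27.7 ± 7.1 CPM in the Nanog-null line (SD, n = 3 each). It was lower also between the Esrrb+Nanog and Esrrb lines (-1.44, adjusted p = 0.00282), a comparison in which Meg3 was not called, and the difference between these genes was not tested. Mest, a paternally expressed gene, averaged 36.1 ± 3.1 CPM, 23.3 ± 4.3 CPM and 71.1 ± 6.2 CPM in the same lines. Phlda2, a maternally expressed gene that limits placental growth, averaged 25.4 ± 2.3, 11.9 ± 1.5 and 36.8 ± 1.7 CPM. Peg10, a paternally expressed gene with a retrotransposon origin like Rtl1, averaged 810.6 ± 107.6 CPM in the Esrrb+Nanog line, against 1948 ± 101.4 CPM in the Esrrb line and 1881 ± 109 CPM in the Nanog-null line.

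The pathways of the protein-coding members held genes that moved both ways, beside 54.4% of all tested genes called in the Esrrb+Nanog line and 48.5% in the Esrrb line. Of 14 tested Notch genes, listed because Dlk1 is related to Notch ligands, 3 were higher and 7 lower in the Esrrb+Nanog line and 4 higher and 7 lower in the Esrrb line. Dll1, a Notch ligand, averaged 1.96 ± 0.43 CPM in the Esrrb+Nanog line, 2.36 ± 0.54 CPM in the Esrrb line and 9.195 ± 0.83 CPM in the Nanog-null line, and Dtx1, a regulator of Notch signalling, had log2 fold changes of -2.14 and -2.02. The receptor gene Notch2 was lower by less, at -0.88 and -0.96. Other Notch genes went the other way. Hes1, a Notch target, averaged 45.05 ± 5.6 CPM in the Esrrb+Nanog line, 36.6 ± 0.91 CPM in the Esrrb line and 19.1 ± 3.2 CPM in the Nanog-null line. The receptor gene Notch4 averaged 19.8 ± 5.1, 9.51 ± 1.0 and 5.29 ± 0.47 CPM in the same lines. Among 9 tested genes of thyroid hormone use, listed for Dio3, 4 were higher and 3 lower in the Esrrb+Nanog line and 3 higher and 3 lower in the Esrrb line. Of 7 tested genes that share the Gag origin of Rtl1, 1 was higher and 1 lower in the Esrrb+Nanog line and 2 were higher and 0 lower in the Esrrb line, the higher ones being Zcchc12 in both lines and Rtl10 in the Esrrb line.

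Markers of other cell types were examined because the domain is also expressed in differentiated cells. The 10 fibroblast and stromal markers summed to between 11.7 and 18.8 CPM in the Esrrb+Nanog line, with Col3a1, Postn and Dcn at 0, between 10.5 and 19.05 CPM in the Esrrb line, with Postn at 0, and to 17.0, 88.1 and 29.1 CPM in Nanog-null libraries, with none at 0. Of 6 tested, 1 was higher and 3 lower in the Esrrb+Nanog line and 1 higher and 4 lower in the Esrrb line. Acta2 alone averaged 26.0 ± 24.8 CPM (SD) in the Nanog-null line, against 0.0473 CPM in the Esrrb+Nanog line and 0.0314 CPM in the Esrrb line. Thy1 went the other way, at 9.23, 8.95 and 2.26 CPM in the Esrrb+Nanog, Esrrb and Nanog-null lines. The marker counts here stand beside 27.2% of all tested genes called each way in the Esrrb+Nanog line and 24.2% in the Esrrb line. The 10 trophoblast markers summed to 31.0 to 39.9 CPM in the Esrrb+Nanog line, 23.3 to 29.4 CPM in the Esrrb line and 56.6, 199.95 and 91.85 CPM in Nanog-null libraries, with Prl3d1 and Tpbpa at 0 in all 3 lines and Elf5 at 0 also in the Esrrb line. Of 7 tested, 4 and 5 were lower and 0 higher in the Esrrb+Nanog and Esrrb lines against the Nanog-null line. Most of the Nanog-null sum came from the keratin genes Krt18 and Krt8, which averaged 57.0 ± 40 and 39.9 ± 30 CPM there (SD). Krt7 and Gata3 were also highest there, at 3.90 and 3.67 CPM. Eomes averaged 9.25, 7.63 and 8.21 CPM and Hand1 2.275, 1.91 and 2.64 CPM in the Esrrb+Nanog, Esrrb and Nanog-null lines. The 10 primitive endoderm markers summed to 14.35 to 22.9 CPM, 30.7 to 65.4 CPM and 13.75 to 45.25 CPM, with Afp at 0 in the Nanog-null line, and of 8 tested 1 was higher and 3 lower in the Esrrb+Nanog line and 3 higher and 1 lower in the Esrrb line. Pdgfra is among these markers, and the cells were sorted for absence of its protein. It averaged 2.90, 10.4 and 2.29 CPM in the Esrrb+Nanog, Esrrb and Nanog-null lines. Gata6 averaged 6.90, 25.1 and 3.66 CPM in these lines, while Dab2 was highest in the Nanog-null line, at 11.85 CPM. The 8 neuroectoderm markers summed to 91.2 to 136.9 CPM, 70.0 to 101.7 CPM and 73.7 to 95.2 CPM in the same order of lines. Tubb3 alone averaged 76.6, 60.1 and 41.7 CPM in that order. Of 5 tested, 2 were higher and 2 lower in the Esrrb+Nanog line and 0 higher and 3 lower in the Esrrb line. Nanog-null replicate 2 had the highest fibroblast and trophoblast sums. Leaving it out kept all 5 lower calls in both comparisons, but this does not remove the markers from the other Nanog-null libraries. Their trophoblast sums, 56.6 and 91.85 CPM, were still above those of every library with added Esrrb. The fibroblast sum of replicate 3, 29.1 CPM, was so as well, and that of replicate 1, 17.0 CPM, was not. The part of other cell types in the levels of the domain was not tested.

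Among the genes compared, the profile of Meg3 over the 9 libraries was matched most closely by Rian and Mirg. Likeness was the root mean square difference of centred log2 CPM, in which 0 is an identical profile. It was taken over 10563 genes outside the domain with a mean of at least 5 CPM in some line. Predicted genes (Gm and Rik symbols), many of them non-coding, and IDs without a symbol were left out. The ranks and closest genes below therefore hold only among the genes kept. Rian at 0.16 and Mirg at 0.24 were closer to Meg3 than any of the 10563. Rtl1 at 0.63 would take rank 19, Dlk1 at 0.99 rank 99, Begain at 2.14 rank 5095 and Dio3 at 2.27 rank 7928. The 5 CPM minimum was not applied to members, and Rtl1, Begain and Dio3 averaged less than it in every line. The closest genes outside the domain were Pkdcc (0.43), a kinase gene of the secretory pathway, Greb1l (0.45), Cthrc1 (0.465), a secreted protein gene, Kcnk1 (0.48), a potassium channel gene, and Prtg (0.51), a gene of the immunoglobulin superfamily known from early embryos. These 5 lie on 5 different chromosomes, none of them 12. Kcnk1 averaged 3.52 ± 0.43 CPM in the Esrrb+Nanog line, 3.49 ± 0.43 CPM in the Esrrb line and 43.2 ± 2.2 CPM in the Nanog-null line, and Prtg averaged 7.14 ± 1.1, 8.73 ± 1.8 and 98.2 ± 21 CPM.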

How the data were processed

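RNA was sequenced from 9 samples of sorted mouse ESCs, 3 lines with 3 libraries each, after ribosomal RNA depletion and library preparation with NEBNext Ultra II, per the labels' protocols. The deposited table holds whole-number read counts per Ensembl gene ID made by the authors, unscaled, per the file headers. The submitters' processing notes name bcl2fastq 2.19.1, STAR 2.5.3a and the build mm10. Their annotation, and whether strand was used in counting, is not given in the sources used here. The 9 columns whose names matched the samples were used, and 6 others were not used.

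Symbols and positions came from GENCODE M21 (mm10), which held 52489 of 52636 IDs. Counts were tested in R 4.3.3 with edgeR 4.0.16 (default low-count filter over the 3 lines, trimmed mean of M values factors, 1 quasi-likelihood fit over the 9 libraries with a term for line). Benjamini-Hochberg adjustment ran over 16198 genes, calls were made at 0.05, and adjusted p-values of genes in the text come from edgeR. SEs were worked back from the F statistic, and 95% intervals used its degrees of freedom. CPM has no pseudocount, and CPM per kb divides by the union of exons. Log2 CPM for likeness used a prior count of 2. The script was tested on simulated data.

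The members, the 10 gene lists and the rule for naming genes were chosen with earlier results of these data known. The rule named all 7 members, other tested IDs of the domain, called neighbours within 500 kb, the 5 genes most like Meg3, and of each list 6 regulators set in advance plus up to 3 called members with the smallest adjusted p per comparison. Hes1, Eomes, Hand1 and Pdgfra were named in addition, to show how members of their lists differed. Ratios of counts within a library were compared by exact two-sided permutation tests. Alternatives were size factors of DESeq2 1.42.0, library totals alone, the DESeq2 test, no low-count filter, at least 1 CPM in 3 libraries, only the lines compared, a replicate block, a test against a 1.5-fold change, and each library left out. Sequences came from RefSeq tables of GRCm38.p6, and all 58 hairpin symbols of the domain matched the count table.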

Additional observations from a re-analysis of the deposited data

How the results depend on the processing

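The 5 lower and 0 higher members against the Nanog-null line, and 0 called between the lines with added Esrrb, were the same under all 17 alternatives. For Dio3, 15 or 16 gave a value, and for Rtl1 between the lines with added Esrrb 16. With 1 library left out the counts stayed at 5, 0 and 0. Between Esrrb+Nanog and Esrrb cells the uncalled log2 changes ran from -0.255 to 0.045 for Meg3, from -0.046 to 0.237 for Rian and from -0.044 to 0.308 for Mirg with 1 library left out. They turned sign for Meg3 without Esrrb+Nanog replicate 3 (0.045), for Rian without Esrrb+Nanog replicate 1 (-0.046), and for Mirg without Esrrb+Nanog replicate 1 (-0.012) or Esrrb replicate 3 (-0.044). Leaving out 1 library moved the log2 difference of the Dlk1 to Meg3 ratio between 1.76 and 2.37 for Esrrb+Nanog cells and between 1.25 and 1.81 for Esrrb cells against Nanog-null cells, and every ratio difference kept its sign.

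Over all genes, the test against a 1.5-fold change called 1324 higher and 1739 lower in Esrrb+Nanog against Nanog-null cells (otherwise 4405 and 4411), 1117 and 1371 in Esrrb against Nanog-null cells (otherwise 3924 and 3925), and 98 and 135 in Esrrb+Nanog against Esrrb cells (otherwise 880 and 1255). The last comparison gave 1386 higher and 941 lower with library totals alone, 486 and 729 without Esrrb+Nanog replicate 2, 395 and 710 without Esrrb replicate 1, and 542 and 836 without Esrrb replicate 3. The cause was not tested.

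With 3 libraries a line, the correlations between libraries did not settle whether the replicate numbers pair the samples. Deviations of same-numbered libraries correlated between -0.025 and 0.278, and not every library correlated best with its own number. With the replicate number as a block, the members called stayed at 5 lower against the Nanog-null line in both lines, and all genes called were 4462 higher and 4484 lower, 3975 and 4025, and 994 and 1387 in the comparisons in the order above. Depth limited Dio3, with 6 to 17 counts a library, and Rtl1 and Dlk1 in the lines with added Esrrb.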
